A study of Mus musculus with 16 samples.

Results

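Olfr996, Olfr998, Olfr1000 and Olfr437 are mouse olfactory receptor genes whose probes gave more signal in quadriceps muscle without the FoxO factors than in wild-type (WT) muscle. The 4 genes were selected on the measured difference in array signal between mFoxO-TKO and WT muscle, and each is read by 1 probe. They are 4 of 1075 olfactory receptor genes (1166 probes) among the 21368 named genes and 55681 probes of the array. Quadriceps RNA of male mice, all 8 weeks of age, was labelled with Cy3 and hybridised to 16 arrays in 4 groups of 4: WT fed, WT fasted for 24 h, mFoxO-TKO fed and mFoxO-TKO fasted for 24 h. mFoxO-TKO mice (mFoxO1,3,4-/- in the labels) lacked Foxo1, Foxo3 and Foxo4 in skeletal muscle, through a Cre recombinase under the human skeletal actin (HSA) promoter. Cells of the muscle that do not use this promoter, such as vessel, nerve and connective tissue cells, keep their FoxO genes. Whether the WT mice carried Cre or the floxed alleles is not given in the sources used here. Fed mice ate freely.

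Olfactory receptors are G-protein-coupled receptors that sit on the cilia of sensory neurons in the nose and bind odorants. They form the largest gene family of the mouse, lie in clusters on many chromosomes, and are usually kept silent outside the nose, although single members are made in testis, muscle and other tissues. In a nasal neuron the receptor acts through the G protein subunit Gnal and adenylyl cyclase Adcy3 on cyclic nucleotide-gated channels, and a neuron normally makes a single receptor type. FoxO factors are transcription factors that insulin signalling keeps out of the nucleus and that fasting activates in muscle.

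The arrays measured muscle: all 8 muscle fibre markers (such as Acta1 and Ckm) were well above background on all 16 arrays. Spots well above background made up from 45.0% to 75.2% of an array, the highest share being that of fasted WT replicate 4, and 0 spots were saturated. Slide 1 carried replicates 1 and 2 of each group, and slide 2 the other two. Each group had its own array column on both slides, so the effects of column and group cannot be told apart. In fasted mFoxO-TKO replicate 1 the signal of bright spots differed between areas of the array, with values given below for each member. Values of fasted WT replicate 1, which was also shifted, are given beside them. A level here is the log2 signal minus the 75th percentile of its array, so it can be compared between arrays for a probe but not between probes. The labels number the samples of a group but do not state that each came from a separate mouse, so the p-values below measure only the spread between these samples, which may in part be technical.

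Olfr996, Olfr998 and Olfr1000 stand together on chromosome 2, and the 250 bases before each annotated start are shown because these genes share their neighbourhood and their difference between genotypes. The sequences come from RefSeq (GRCm38.p6): Olfr996 is chr2:85578965-85579214 on the plus strand, Olfr998 is chr2:85590260-85590509 on the plus strand, and Olfr1000 is chr2:85608909-85609158 on the minus strand. The annotated start of Olfr1000 is the start codon ATG, whereas those of Olfr996 and Olfr998 are not, so the windows do not begin from the same kind of start. Capitals mark the longest run that the Olfr996 and Olfr1000 windows share, of 32 bases.
Olfr996: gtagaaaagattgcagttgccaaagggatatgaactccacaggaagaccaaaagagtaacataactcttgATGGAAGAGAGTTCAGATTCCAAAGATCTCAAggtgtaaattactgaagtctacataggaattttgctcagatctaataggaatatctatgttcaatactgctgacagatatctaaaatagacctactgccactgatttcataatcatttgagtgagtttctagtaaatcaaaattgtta
Olfr1000: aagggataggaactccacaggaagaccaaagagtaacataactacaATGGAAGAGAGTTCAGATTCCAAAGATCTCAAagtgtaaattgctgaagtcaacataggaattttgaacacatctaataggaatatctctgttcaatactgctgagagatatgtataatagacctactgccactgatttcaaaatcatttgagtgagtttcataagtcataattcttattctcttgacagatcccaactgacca
Olfr998: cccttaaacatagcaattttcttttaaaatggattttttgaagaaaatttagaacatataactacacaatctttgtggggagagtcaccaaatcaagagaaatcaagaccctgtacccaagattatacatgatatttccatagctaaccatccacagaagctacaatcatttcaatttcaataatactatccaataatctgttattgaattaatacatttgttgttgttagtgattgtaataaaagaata
In a pairwise alignment, 207 of the 250 bases (82.8%) of the Olfr996 and Olfr1000 windows were identical. Among the windows of 943 other olfactory receptor genes, each of these 2 was the other's closest. The next closest to Olfr996 was Olfr1238, with 164 identical bases, and the median was 124. The Olfr998 window was less close to them: 158 bases matched Olfr996 and 146 matched Olfr1000. On the same measure its closest window, that of Olfr293, matched 164 bases, and its median was 119. Both values for Olfr998 thus lay above its median. Such values are not limited to neighbours. The window of Olfr983, a receptor gene on chromosome 9 described below, matched 151 bases of Olfr996, 141 of Olfr1000 and 63 of Olfr998. The shared run of 32 bases occurred in 2 of 32851 windows of the RefSeq table. Whether the probe of each also binds the transcript of the other was not tested.

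A search of these windows and of the Olfr983 window on both strands found none of 4 motifs. No window of Olfr437 was available, so that gene was not searched. The motifs were the forkhead core GTAAACA, the homeodomain core TAATTA, the Ebf site (searched by its palindromic consensus) and the TATA box TATAAA. The forkhead core stood in 3.17% of all 32851 windows and in 5.80% of the 948 windows of olfactory receptor genes. The homeodomain core stood in 4.84% and 18.0%, the Ebf site in 0.779% and 0.422%, and the TATA box in 12.4% and 39.2%. The lack of a match says only that these motifs are not spelled in these windows.

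Olfr996 (MOR175-4) was at background in WT muscle and bright in mFoxO-TKO muscle. Its levels in fed WT mice were -6.82, -6.97, -6.78 and -7.04 (replicates 1 to 4), and in fasted WT mice -5.93, -6.78, -5.63 and -7.68. None of these 8 arrays was well above background. In fed mFoxO-TKO mice the levels were 3.02, 1.81, 1.79 and 1.82, and in fasted mFoxO-TKO mice 0.0051, 1.41, 1.48 and 1.72, well above background on 8 of 8 arrays. The groups of the 2 genotypes did not overlap, with a gap of 5.64 between the lowest mFoxO-TKO and the highest WT level. As deposited, the processed signal ran from 4.10 to 16.7 units on WT arrays and from 414 to 3911 units on mFoxO-TKO arrays. Replicate 1 stood out in both mFoxO-TKO groups, highest when fed and lowest when fasted. On the fasted array of these, the 33 bright spots within 8 rows and 4 columns of the Olfr996 spot were shifted by a median of -0.56 from their own medians over the 16 arrays. On the fed array the same spots were shifted by 0.06, and on the array of fasted WT replicate 1 by 0.50. The part of these shifts in the levels was not tested.

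Olfr1000 (MOR175-9) was also at background in WT and bright in mFoxO-TKO muscle. Fed WT levels were -6.70, -6.90, -6.66 and -8.06, and fasted WT levels -5.82, -6.83, -5.49 and -7.48, with 0 of 8 arrays well above background. Fed mFoxO-TKO levels were 0.76, 1.30 and 1.26 in replicates 2 to 4. The spot of replicate 1 was marked uneven and left out (1.73 where kept), so n = 3. Fasted mFoxO-TKO levels were 1.53, 0.52, 0.93 and 1.20, and all 8 mFoxO-TKO arrays were well above background. The lowest mFoxO-TKO level lay 6.01 above the highest WT level. In signal units WT arrays read 2.97 to 18.4 and mFoxO-TKO arrays 837 to 2216. Around the Olfr1000 spot, bright spots of fasted mFoxO-TKO replicate 1 were shifted by 0.51 (31 spots), in the opposite direction to those around Olfr996. The same spots were shifted by 0.23 in fasted WT replicate 1.

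Olfr998 (MOR175-5) lies between them. It read -6.87, -6.93, -6.84 and -6.61 in fed WT mice, none of them well above background. In fasted WT mice it read -6.04, -6.55, -5.65 and -3.64, and only the last of these, on the array with the most spots above background, was itself well above background. The fed mFoxO-TKO levels of -0.55, -0.50, -0.48 and -0.28 were closely grouped. The fasted mFoxO-TKO levels were -0.72, -0.66, -1.88 and -1.54, with both slide 2 samples below both slide 1 samples. The genotypes did not overlap, but fasted WT replicate 4 narrowed the gap to 1.75. Bright spots around the Olfr998 spot (45 spots) were shifted by 0.35 in fasted mFoxO-TKO replicate 1 and by 0.31 in fasted WT replicate 1.

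Olfr437 (MOR261-11) is the only one of the 4 on chromosome 6. Fed WT levels were -6.70, -6.86, -6.63 and -5.41, and fasted WT levels -4.16, -6.69, -5.47 and -5.21. In each WT group only replicate 4 was well above background, so the highest WT level, in fasted replicate 1, was itself not measured above background. Fed mFoxO-TKO levels were -2.42, -2.80, -2.20 and -1.83, and fasted mFoxO-TKO levels -2.34, -2.72, -3.10 and -2.69, well above background on 8 of 8 arrays at signals from 81.2 to 260.02 units. The genotypes did not overlap, with a gap of 1.06, the smallest of the 4 genes. Bright spots around the Olfr437 spot (40 spots) were shifted by 0.20 in fasted mFoxO-TKO replicate 1 and by 0.15 in fasted WT replicate 1.

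**Figure D1:**
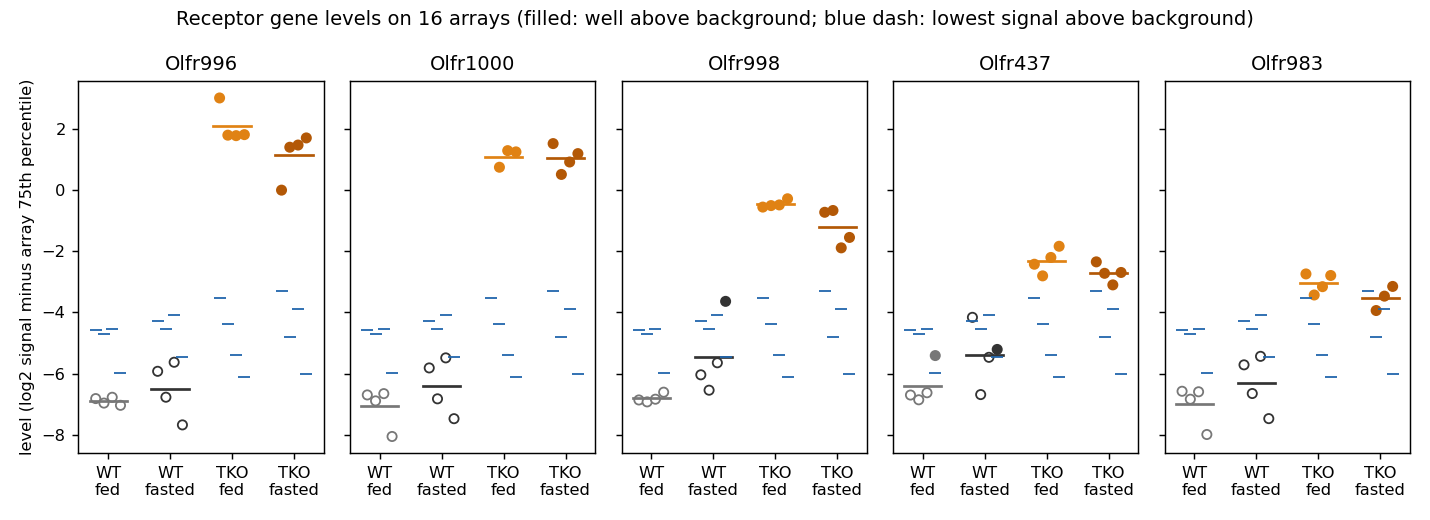
Level of Olfr996, Olfr1000, Olfr998, Olfr437 and Olfr983 on each array (vertical axis, log2 signal minus the array's 75th percentile) in the 4 groups (horizontal axis, n = 4 arrays each, or 3 for Olfr1000 in fed and Olfr983 in fasted mFoxO-TKO mice). Filled points are well above background, open points are not, bars are group means, and blue dashes mark the lowest signal well above background on that array; every mFoxO-TKO (TKO) point is filled and lies above all WT points of its panel.

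Since these genes were chosen for their difference between genotypes, its size is described without a test. In fed mice Olfr996 was higher in mFoxO-TKO muscle by 9.01 ± 0.44 on the log2 scale (standard error of the limma model), and in fasted mice by 7.66 ± 0.44. For Olfr1000 the differences were 8.18 ± 0.44 and 7.45 ± 0.41, for Olfr998 6.36 ± 0.46 and 4.27 ± 0.46, and for Olfr437 4.09 ± 0.43 and 2.67 ± 0.43. Ranked by the mean of both differences among 21281 genes tested, Olfr996, Olfr1000, Olfr998 and Olfr437 stood at places 1, 2, 3 and 14. Levels of all 8 mFoxO-TKO arrays lay above those of all 8 WT arrays for 117 of these genes (0.55%). In a whole muscle, more cells with a transcript and more transcript per cell cannot be told apart.

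The WT side of these differences is mostly background, so a fold is given as a bound. Each WT array counts at its lowest signal well above background, or at the probe's own level where that is higher. This lowest signal is taken over all probes and is not a detection limit for each probe. In fasted WT replicate 1, Olfr437 read -4.16 against a lowest signal of -4.27 and was not well above background. The bounds are thus on the signal read. Olfr996 was at least 133-fold higher in fed and at least 53.5-fold higher in fasted mFoxO-TKO muscle. The bounds were 66.4-fold and 49.6-fold for Olfr1000. For Olfr998 they were 22.6-fold (fed) and 7.61-fold (fasted, with 1 of 4 WT arrays measured), and for Olfr437 5.62-fold and 3.44-fold, with 1 of 4 WT arrays measured in each state. The size of the differences depends on the background correction and on any offset added. With normexp correction and its offset of 50 they were 5.14 and 4.14 for Olfr996, 4.20 and 4.20 for Olfr1000, 2.78 and 2.14 for Olfr998, and 1.26 and 1.21 for Olfr437. All 8 remained above 0 there, but all 8 lay below the bounds, which on the log2 scale were 7.06 and 5.74 for Olfr996, 6.05 and 5.63 for Olfr1000, 4.497 and 2.93 for Olfr998, and 2.49 and 1.78 for Olfr437. The bounds therefore hold for the processed signal only. An offset of 50 added to every signal makes differences from dim levels smaller by itself. This alternative thus cannot check the size of the differences or the bounds. Within slide 1 and slide 2, Olfr996 differed by 9.31 and 8.72 in fed mice and by 7.06 and 8.26 in fasted mice. Olfr998 in fasted mice differed by 5.60 on slide 1 and by 2.93 on slide 2, and by 4.88 without fasted WT replicate 4. Olfr437 differed by 4.17 and 4.01 in fed and by 2.89 and 2.45 in fasted mice on the 2 slides.

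Fasting within mFoxO-TKO muscle was not used to choose the genes and was tested. Olfr996 was lower after fasting by a difference of -0.96 ± 0.44, with a 95% interval from -1.88 to -0.03 and a limma adjusted p of 0.208. Without fasted mFoxO-TKO replicate 1 the difference was -0.57. On slide 1 it was -1.71 and on slide 2 it was -0.21. Olfr998 differed by -0.75 ± 0.46 (interval -1.72 to 0.22, adjusted p = 0.374), Olfr1000 by -0.06 ± 0.44 (interval -1.01 to 0.89, adjusted p = 0.960) and Olfr437 by -0.40 ± 0.43 (interval -1.31 to 0.51, adjusted p = 0.651), all by limma. None of the 4 genes passed, at an unadjusted p under 0.05 only Olfr996 did (0.0437), and 8.52% of all genes tested passed in this comparison. The lower ends of the 4 intervals ran from -1.88 to -1.01. In WT muscle Olfr996 and Olfr1000 were at background on all 8 arrays, Olfr998 on 7 and Olfr437 on 6, so no change with fasting is given.

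Most of the rest of the family was at background. Of the 1166 olfactory receptor probes, 482 were well above background on no array, 476 on 1 to 3 arrays and 28 on all 16. Well above background on 8 of 8 mFoxO-TKO arrays and on 0 of 8 WT arrays were 4 of 55681 probes (0.00718%), and 3 of these were olfactory receptor probes: Olfr996, Olfr1000 and Olfr983. The fourth was Gm2447, a long non-coding RNA. The reverse pattern was met by 2 probes, both of Foxo4 and none of a receptor. Of the 75 other receptor genes above background on all arrays of at least 1 group, 1 passed in fed mice and 1 in fasted mice, Olfr983 each time, and both were higher in mFoxO-TKO muscle. Over all genes tested, 1.02% passed in fed mice (0.507% higher, 0.512% lower) and 9.36% in fasted mice (4.39% higher, 4.97% lower). At an unadjusted p under 0.05 the counts were 2 and 7 of 75. The median difference of the 75 was -0.08 in fed and 0.03 in fasted mice, beside 0.01 and 0.04 over all genes tested. With replicate number as a block, 4 passed in fasted mice: Olfr983, Olfr30 (0.45), Olfr704 (0.38) and Olfr1347 (-0.80), the last 3 named after their values were seen.

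**Figure D2:**
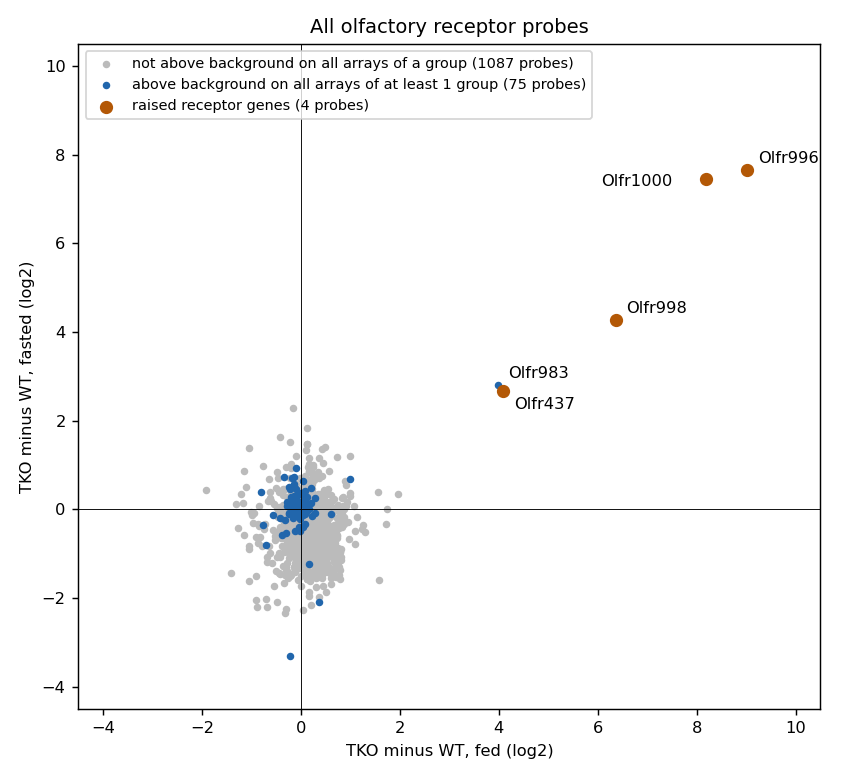
Difference between mFoxO-TKO (TKO) and WT muscle for every olfactory receptor probe, in fed mice (horizontal axis, log2) and in fasted mice (vertical axis, log2); grey probes were not above background on all arrays of any group. Olfr996 and Olfr1000 lie at 9.01 and 7.66 and at 8.18 and 7.45, Olfr983 lies beside Olfr437, and the 1161 other probes lie between -1.92 and 1.96 in fed and between -3.32 and 2.28 in fasted mice.

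Olfr983 (MOR162-1, chromosome 9) is not one of the 4, but its mean difference of 3.39 was as large as the 3.38 of Olfr437. WT levels ran from -8.00 to -6.58 in fed and from -7.48 to -5.44 in fasted mice, with 0 of 8 arrays well above background. Fed mFoxO-TKO levels were -2.74, -3.43, -3.16 and -2.79. Fasted mFoxO-TKO levels were -3.94, -3.47 and -3.15 in replicates 2 to 4, while the spot of replicate 1 was marked uneven and left out (1577 signal units, against 38.1 to 97.4 in the others). The level of Olfr983 was at least 3.79-fold higher in fed and at least 2.10-fold higher in fasted mFoxO-TKO muscle (n = 3 in the latter). It is singled out here for its size and was kept by the filter only through the mFoxO-TKO arrays, so its passing is given as a description. It did not pass with normexp correction, whose offset of 50 shrinks differences at such dim signals, or on slide 2 alone. Slide 1 alone could not give it, because of the spot left out. Among the 75 receptor genes kept by the filter, the next 3, Olfr657, Olfr629 and Olfr1375, had mean differences of 0.83, 0.42 and 0.34. Over all receptor probes, most of them at background, they ranked 15, 61 and 88. None of these passed in either feeding state, and their genotypes overlapped.

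The number of receptor probes above background per array overlapped between the genotypes. It ran from 68 to 245 in fed and from 73 to 229 in fasted mFoxO-TKO mice, and from 116 to 241 in fed and from 71 to 509 in fasted WT mice. Arrays with a larger share of all spots above background had more receptor probes above it on the whole, and the array with 509 receptor probes was fasted WT replicate 4. That array gave the WT signal of Olfr998 and one of the WT signals of Olfr437.

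**Figure D3:**
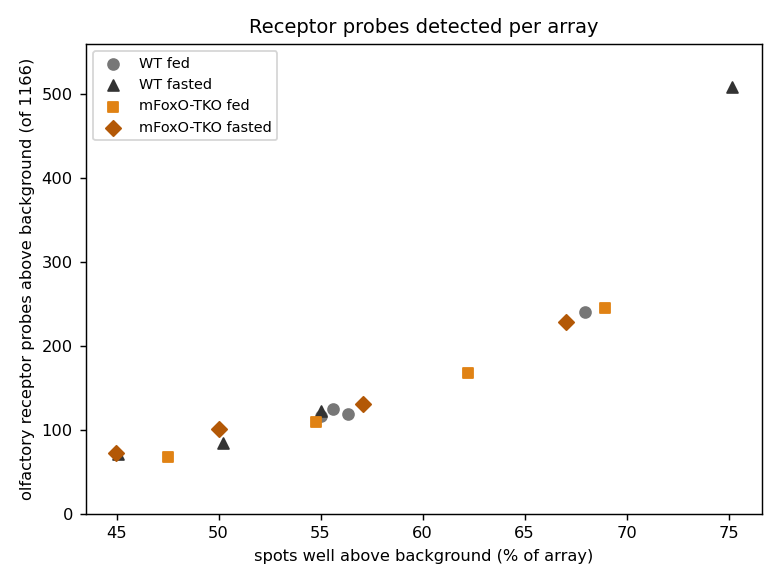
Olfactory receptor probes well above background on each of the 16 arrays (vertical axis, of 1166) against the share of all spots well above background on that array (horizontal axis, percent), by group. The mFoxO-TKO arrays lie among the WT arrays, and fasted WT replicate 4 stands apart at 75.2% and 509 probes.

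The 3 receptors of chromosome 2 stood among genes that were at background in most cases. In the reference order the stretch reads Olfr994, Olfr995, Fads2b, Olfr996, Olfr997-ps1, Olfr998, Olfr999-ps1, Olfr1000, Olfr1001-ps1 and Olfr1002, where the -ps1 genes are pseudogenes with no probe here. On one side, Fads2b (a fatty acid desaturase gene) differed by 0.71 in fed and by -1.15 in fasted mice and was above background on 0 mFoxO-TKO arrays and 1 WT array. On the other side, Olfr1002 differed by 0.12 and -0.25 and was above background on none. Among the 32 genes within 15 places of these 3 receptors, 17 had a probe, 7 of them above background on no array, and 2 could be tested: Lrrc55 and Olfr1008. Neither passed. Around Olfr437, 15 of 30 genes had a probe and 4 could be tested. Its neighbours Olfr237 and Olfr13 were above background on at most 1 array of a genotype, and differed by 0.05 and 0.22 in fed and by 0.34 and -0.32 in fasted mice.

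Of the 6 neighbours that could be tested, 0 passed in fed mice (1.02% of all genes passed, and 0 of 6 had an unadjusted limma p under 0.05) and 1 passed in fasted mice (9.36% of all genes). It was Arhgef5, a guanine nucleotide exchange factor gene 7 places from Olfr437, lower in fasted mFoxO-TKO muscle by a difference of -0.91 ± 0.22 (limma adjusted p = 0.0151). It did not pass without fasted WT replicate 4 or on either slide alone. Olfr441, which like Olfr437 belongs to the MOR261 family, was well above background on all 16 arrays and differed by -0.24 ± 0.28 and -0.09 ± 0.28 (limma adjusted p = 0.976 and 0.898). Of 32 neighbours with a probe, only 6 were above background on all arrays of a group.

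**Figure D4:**
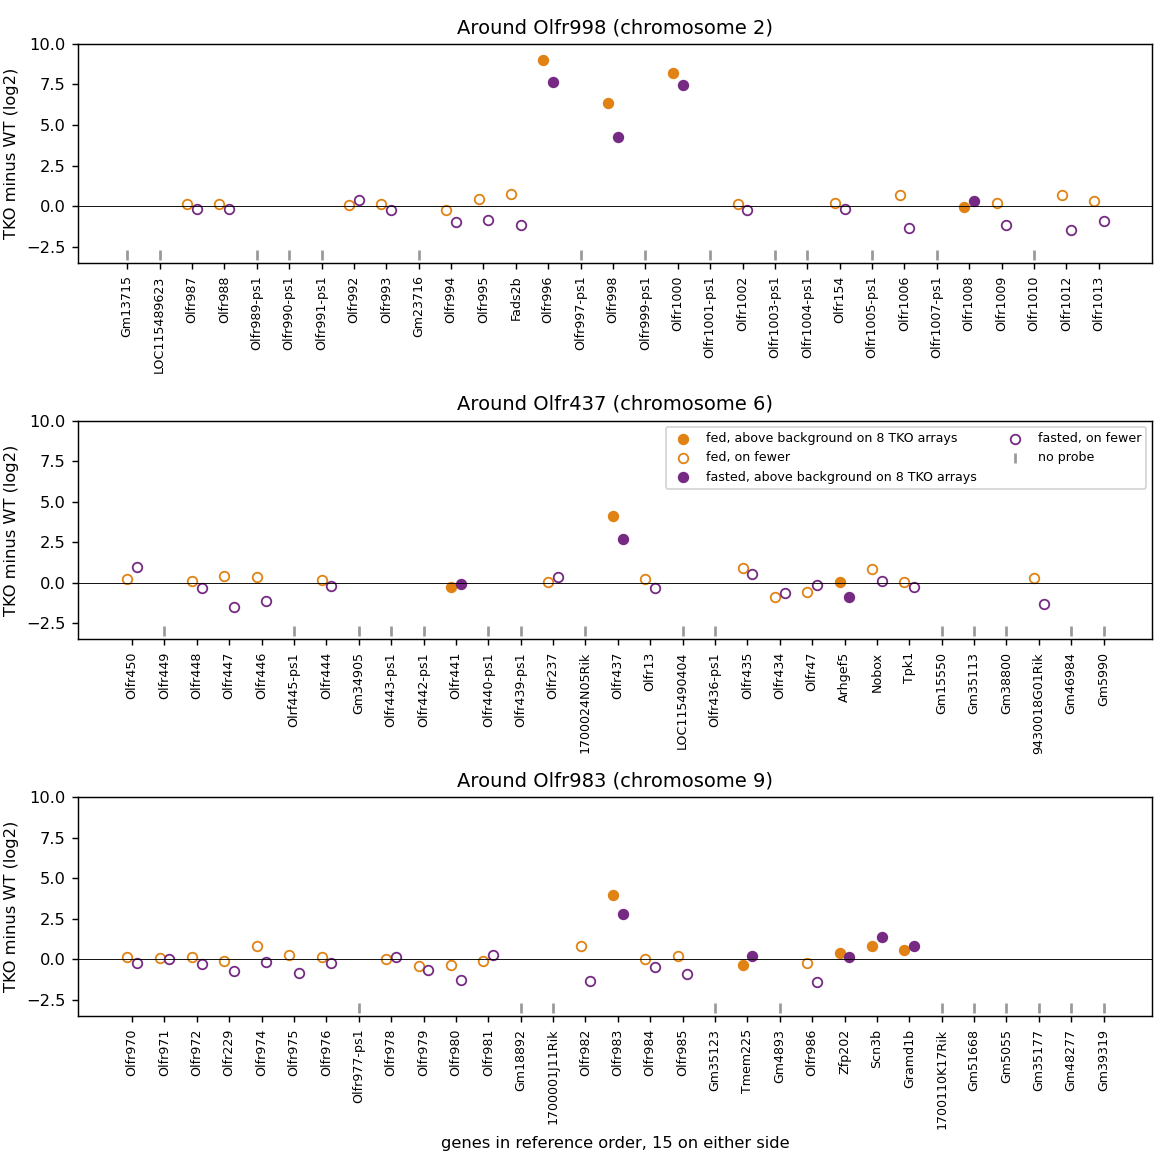
Difference between mFoxO-TKO (TKO) and WT muscle (vertical axis, log2) for the genes in reference order around Olfr998, Olfr437 and Olfr983 (horizontal axis, 15 genes on either side), in fed (orange) and fasted (purple) mice. Filled points were well above background on 8 mFoxO-TKO arrays, open points on fewer, and grey ticks are genes with no probe; Olfr996, Olfr998 and Olfr1000 stand above their neighbours, and the open points are mostly values at background.

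The members on chromosome 2 belong to a single receptor family by their MOR names. MOR175 holds 9 genes in the reference table, 3 of them pseudogenes, and 6 have a probe. Of these, Olfr996, Olfr998 and Olfr1000 were well above background on all mFoxO-TKO arrays, and the other 3 (Olfr1002, Olfr154 and Olfr1009) on 0. Those 3 differed by 0.12, 0.18 and 0.19 in fed and by -0.25, -0.20 and -1.19 in fasted mice. In the MOR261 family, 11 of 13 genes have a probe, and Olfr437 and Olfr441 were on in all mFoxO-TKO arrays. No member shares a chromosome with Foxo1 (3), Foxo3 (10) or Foxo4 (X).

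The machinery that olfactory receptors use in the nose was measured for 31 genes of signal transduction, receptor transport and receptor choice, of which 26 could be tested. In fed mFoxO-TKO muscle 0 of 26 passed by limma (1.02% of all genes, and 2 of 26 at an unadjusted p under 0.05). With the replicate block, 1 passed: Grk3, a receptor kinase, by 0.59 ± 0.10 (limma adjusted p = 0.0105). In fasted mFoxO-TKO muscle 3 were higher and 4 lower (9.36% of all genes passed). Grk3 was higher by 1.48 ± 0.21 and the kinase subunit Camk2b by 0.95 ± 0.26, whereas Rgs2, a regulator of G protein signalling, differed by -2.29 ± 0.38 and the chloride importer Slc12a2 by -1.35 ± 0.17. The median of the 26 was 0.09, beside 0.04 over all genes tested. These genes also serve other pathways in muscle.

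Fasting was tested on the same list within each genotype, and the WT comparison shares its fasted arrays with the previous comparison. In WT mice 4 of 26 rose and 5 fell (20.8% of all genes passed, 11.2% higher and 9.57% lower), among them Rgs2 by 1.84 ± 0.38, Grk3 by -1.03 ± 0.21, Slc12a2 by 0.92 ± 0.17 and the receptor transporter Rtp4 by -0.84 ± 0.25. The WT count was 5 without fed WT replicate 1 and 5 without fasted WT replicate 3. In mFoxO-TKO mice 1 passed (8.52% of all genes, 4.29% higher and 4.23% lower): Rtp4, by -1.17 ± 0.25 (limma adjusted p = 0.00840). Without fasted mFoxO-TKO replicate 1, or without fasted WT replicate 4, 2 passed. Parts of the list used in nasal neurons varied. Cnga4 and Rtp1 were well above background on no array, Ano2 on 4 and Gng13 on 7 of 16. Adcy3 was above it on 10, Cnga2 on 11, Gnal on 14, Rtp2 on 15 and Cngb1 on 16.

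Among 8 markers of olfactory sensory neurons, none was well above background on all 16 arrays, and 1, Rtp1, on none. The olfactory marker protein gene Omp was above background on 5 mFoxO-TKO and 6 WT arrays. The summed marker level ran from -1.17 to -0.91 in fed WT, from -1.05 to -0.28 in fasted WT, from -1.10 to -0.89 in fed mFoxO-TKO and from -1.31 to 0.18 in fasted mFoxO-TKO mice. Of the 4 that could be tested, 0 passed by limma between genotypes in either state (0 fed and 1 fasted at an unadjusted p under 0.05). Of 7 male germ cell markers, 0 were above background on all arrays, and the 2 tested did not pass by limma (0 at an unadjusted p under 0.05). In the lists for fat cells, macrophages, endothelium, fibroblasts, Schwann cells and red blood cells, 0 markers passed by limma between genotypes in either state, with 1 macrophage marker in fed mice at an unadjusted p under 0.05. The 3 macrophage markers tested had the largest median differences of these lists, 0.92 in fed and 0.42 in fasted mice. Over all genes tested the medians were 0.01 and 0.04. A difference in cell make-up was not tested further.

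The genes whose levels over the arrays were most like those of the members are given by Pearson r, as a description without a test. The arrays form a WT and a mFoxO-TKO set for these genes, so r mostly ranks genes that separate the genotypes. Closest to Olfr996 were Olfr1000 (0.99), Maats1 (0.97), Olfr983 (0.97), Ren1 (0.95) and Olfr998 (0.94). Closest to Olfr1000, over 15 arrays, were Olfr996 (0.99), Maats1 (0.97), Ren1 (0.96), Gm2447 (0.96) and Fgl1 (0.95). Among the closest to Olfr998 were Olfr437, Ttc9, Maats1 and Fgl1 (each 0.95), and among the closest to Olfr437 were Maats1 (0.96), Olfr998 (0.95), Shc2 (0.93) and Fgl1 (0.93).

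Maats1, a gene of cilia and flagella also called CFAP91, was thus among the 5 closest for each of the 4 receptors. It was higher in mFoxO-TKO muscle by 3.99 ± 0.31 in fed and 3.69 ± 0.31 in fasted mice, from background on 7 of 8 WT arrays. Fgl1, a secreted fibrinogen-like protein, differed by 4.57 ± 0.43 and 3.94 ± 0.43, also from background on 7 of 8 WT arrays. Ren1, the renin gene, was above background on all 16 arrays and differed by 3.33 ± 0.31 and 3.52 ± 0.31. Gm2447 differed by 3.84 ± 0.17 and 4.13 ± 0.17, from background on 8 of 8 WT arrays, and stands 8 places from Foxo1 on chromosome 3. The differences of Maats1, Fgl1 and Gm2447 rest on WT values mostly or wholly at background, so their size is not exact.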

How the data were processed

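Total RNA of 16 quadriceps samples was measured on 1-colour Agilent arrays. Agilent Feature Extraction read the scans, in version 11.0.1.1 per the file headers and 9.5 per the submitters' processing notes. The deposited processed signals are intensities, with background subtraction and detrending inside each array recorded in the headers. The value table of the authors gives 18324 spots whole-number scores equal, within 2% for signals of 50 or more, to the processed signal times 1 factor per array, on a linear scale with column medians from 22 to 25; it holds 0 probes of the 4 genes. Marks for spots well above background or uneven come from the deposited files. The headers name build mm9 and the gene table GRCm38.p6, so only gene order is used from the latter, apart from the RefSeq windows.

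Control spots and uneven spots were left out, repeats were averaged to 55681 probes, and probes were named through their RefSeq accession (28331 with a symbol). Log2 signals were set to each array's 75th percentile. A probe was kept when all arrays of some group read it well above background, and the brightest probe stood for a gene. limma 3.58.1 (lmFit, eBayes) in R 4.3.3 fitted 4 group means over 16 arrays, with Benjamini-Hochberg adjustment over 21281 genes and a threshold of 0.05. On simulated data, fasting changes of 1 and 2 in mFoxO-TKO mice were recovered for 55% and 88% of genes, with calls for 0.019% of unchanged genes. The changed genes were drawn from all genes tested. These shares are thus not the power for the 4 receptor genes, whose standard errors in this comparison ran from 0.43 to 0.46.

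The genes and lists were chosen with earlier results of these data known. Named are the 4 genes, the 4 other receptor genes with the highest mean difference among those kept by the filter, passing neighbours, up to 4 passing genes of the signalling list per comparison, and the 5 genes most like each receptor, of which 1 gene is not reported here. The labels do not say that replicate numbers pair samples. Same-numbered samples deviated together in the fed genotype (lowest r 0.16), fasted genotype (0.11) and mFoxO-TKO fasting (0.14) comparisons, and less in WT fasting (0.06), so the block is given beside the first 3 where it changes a call. Alternatives varied background correction (normexp on the deposited median signals, in place of mean signals), scaling, filter, uneven spots, slide, arrays and number of neighbours.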

Additional observations from a re-analysis of the deposited data

Results flagged for a closer look

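In fed mFoxO-TKO muscle, Olfr996 of replicate 1 stood at a level of 3.02, apart from the other 3 arrays at 1.79 to 1.82. Olfr657 of the same array stood at -1.10, apart from levels of -4.43 to -4.03. Both were picked out by the gap between the highest array and the next, relative to the range of the group (Dixon's test). In all 13 groups of 4 measured arrays were examined, and chance alone gives such a gap in about 1 of 20. The bright spots around the Olfr996 spot on that array were shifted by 0.06 and those around the Olfr657 spot by -0.61, and their part in these levels was not tested.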

How the results depend on the processing

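The 4 receptor genes kept a positive genotype difference in both feeding states under each alternative that measured them. With normexp correction the differences (fed, fasted) shrank to 5.14 and 4.14 (Olfr996), 2.78 and 2.14 (Olfr998), 4.20 and 4.20 (Olfr1000), and 1.26 and 1.21 (Olfr437). Its offset of 50 shrinks differences from dim levels by itself. With this correction 0 other receptor genes passed in either state and 0 neighbours in fasted mice. On slide 1 alone Olfr998 differed by 5.60 in fasted mice, fasting in mFoxO-TKO mice turned to 0.081 for Olfr437 (adjusted p = 0.970), 0 other receptor genes (both states) and 0 neighbours passed, and the signalling list gave 1 (fasted genotype), 1 (WT fasting) and 0 (mFoxO-TKO fasting). On slide 2 alone Olfr998 differed by 2.93 in fasted mice, 0 other receptor genes (fed) and 0 neighbours (fasted) passed, and mFoxO-TKO fasting gave 3 signalling genes. Slide 1 could not give Olfr1000 or Olfr983. Fewer arrays leave less power in each slide.

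In fasted mice the count of other receptor genes was 4 when scaled on probes above background on all arrays, 2 without the filter, 2 with slide as a block, 4 with the replicate block and 2 in the authors' value table (0 in fed mice there). Keeping only probes above background on all 16 arrays, which removes the 4 genes, gave 0 and 0, and 2 signalling genes in mFoxO-TKO fasting. The signalling list gave 1 in fed genotype with slide or replicate block, 5 in WT fasting without the filter, and 4 in mFoxO-TKO fasting in the authors' value table. The replicate block changed no other call. Neighbours passing in fasted mice were 0 in the authors' value table and 0 within 5 places. Within 30 places 2 passed in fed and 3 in fasted mice, from Slc43a1, Cntnap2 and Arhgef5, all lower in mFoxO-TKO muscle. The cause of these differences was not tested.

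Leaving out each array in turn, the genotype difference ran from 8.71 to 9.12 (fed) and 7.27 to 8.04 (fasted) for Olfr996, 6.30 to 6.43 and 3.91 to 4.88 for Olfr998, 7.86 to 8.36 and 7.09 to 7.75 for Olfr1000, and 3.93 to 4.42 and 2.23 to 3.08 for Olfr437. The fasting difference in mFoxO-TKO mice ran from -1.14 to -0.57 (Olfr996), -0.93 to -0.52 (Olfr998) and -0.56 to -0.24 (Olfr437), while that of Olfr1000 changed sign (-0.23 to 0.12). Counts ran from 1 to 2 for other receptor genes and 0 to 1 for neighbours in fasted mice, and for the signalling list from 5 to 7 (fasted genotype), 5 to 11 (WT fasting) and 1 to 2 (mFoxO-TKO fasting). Each gene rests on a single probe, and most WT levels (8 of 8 arrays for Olfr996 and Olfr1000, 7 for Olfr998, 6 for Olfr437) were not well above background.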
